A study of Mus musculus with 6 samples.

Results

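The voltage-gated sodium and calcium channel genes were taken as every gene of the deposited table whose symbol is Scn followed by a digit or begins with Cacna, Cacnb or Cacng, with no filter on level. The rule found 40 of 23366 genes: 14 of the sodium channel (10 pore-forming alpha and 4 beta subunits) and 26 of the calcium channel (10 alpha1, 4 alpha2delta, 4 beta and 8 gamma subunits). Of the 40 genes, 33 had a mean of at least 0.5 FPKM (fragments scaled to transcript length and to library size) over the 6 mice and were tested, and 7 lay under that level.

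Voltage-gated sodium channels open when the membrane depolarizes and carry the rising phase of the action potential. Their alpha subunit forms the pore, and the beta subunits set its gating and its anchoring in the membrane. Voltage-gated calcium channels turn depolarization into calcium entry, which drives transmitter release at the presynaptic terminal, dendritic calcium signals and calcium-dependent gene expression. Their alpha1 subunit forms the pore, alpha2delta and beta subunits bring it to the surface, and most of the gamma subunits found in brain act instead as transmembrane AMPA receptor regulatory proteins (TARPs), which traffic and tune the AMPA-type glutamate receptor.

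RNA was sequenced from cortical tissue, called frontal in the study's results. The mice were 3 littermate controls (A1 to A3) and 3 microglia-depleted mice at d10 post depletion (A4 to A6). All were of the C57BL/6 strain, with 1 library per mouse. The cortical neuron loss that the study reports was in the somatosensory cortex. Values of single mice are listed in the order A1, A2, A3 for control and A4, A5, A6 for depleted mice. Control mice were CX3CR1-CreERT2+/-, and depleted mice were CX3CR1-CreERT2+/- with iDTR+/- in addition, an inducible diphtheria toxin receptor, so that 1 copy of the Cre allele was shared by both groups. The study describes adult mice. Its methods state that both genotypes received tamoxifen, that depletion was induced with diphtheria toxin, and that mice were matched for age and sex, and they do not state whether the control mice received the toxin. Cre is driven by the CX3CR1 promoter in this model, and the toxin was given after a wait in which peripheral monocytes are replaced, so that microglia are the intended target, and the study describes repopulated microglia at d10. The comparison asks whether channel transcripts of cortical tissue differed after depletion and return of microglia. In such bulk tissue, fewer cells of a type and less RNA per cell cannot be told apart.

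The low FPKM values of a library tend to lie near whole multiples of 1 fragment. Their spacing gave rough estimates of 14.6 to 20.4 M fragments in the control and 10.7 to 13.7 M in the depleted libraries. Second estimates described the values somewhat less well, at 29.3 M for A1, 26.8 M for A4 and 7.16 M for A5. The order of the depths is thus not settled. Between 5834 and 6033 genes were at 0 in the control libraries, and 5903 in A4, 7144 in A5 and 6849 in A6. Library A4 stood apart: its mean Pearson correlation with the other mice over the genes tested was 0.9720, against 0.9806 to 0.9851 for each of the others. Although the groups are described as sex-matched, the sum of the Y-linked transcripts was 5.56 FPKM in A4 and at most 0.16 in the others, and Xist was 4.74 FPKM in A3 and 30.9 to 46.7 in the others. Values without A4 are therefore given beside many of the channel results in which it was the extreme mouse, and the part of sex in them was not tested.

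The channel genes as a group lay slightly lower in depleted than in control mice, without a single gene passing the adjusted test. The clearest differences were in 3 TARP genes, Cacng7, Cacng3 and Cacng8, and in Cacna1i, which encodes the T-type channel Cav3.3, each with every depleted mouse below every control mouse and with a mean FPKM 20.3 to 20.7% lower. The pore-forming sodium channel genes, the sodium beta subunit genes and Cacng2 overlapped between the groups. With limma on log2(FPKM + 1) and Benjamini-Hochberg adjustment over all genes tested, 0 of the 33 channel genes had an adjusted p under 0.1, where 4 of all 14385 genes tested did (0.0278%). Many more genes passed that threshold in the study's own test on counts, which was not repeated here. An unadjusted p under 0.05 was found in 4 channel genes (12.1%), against 10.5% of all genes tested. All 4 were lower in depleted mice, against 5.74% of all genes tested that were called in that direction. With A2 left out 0 channel genes had an unadjusted p under 0.05 in limma, where 951 of all 14385 genes tested did. With A4 left out 2 did, Cacng7 and Cacng8, where 1895 of all genes tested did.

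The groups did not overlap in 5 of the 33 channel genes (15.2%), against 17.6% of all genes tested, and all 5 were lower in depleted mice, against 9.38% of all genes tested. The shares of channel genes called in either direction were thus near those of all genes. A log2 fold change below 0 was found in 28 channel genes (84.8%), against 52.0% of all genes tested, and the median log2 fold change was -0.08 over the channel genes and -0.01 over all genes. A single mouse weighed on that median. The median deviation of the channel genes from the control mean was -0.17 for A4, -0.09 for A6 and -0.03 for A5, and A4 was the lowest of the 6 mice in 15 channel genes (45.5%), against 28.2% of all genes. Without A4, the median over the channel genes was -0.04 and 22 of the 33 lay below 0, and limma's array weights, which give each mouse its own weight, placed it at -0.04 as well.

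**Figure D1:**
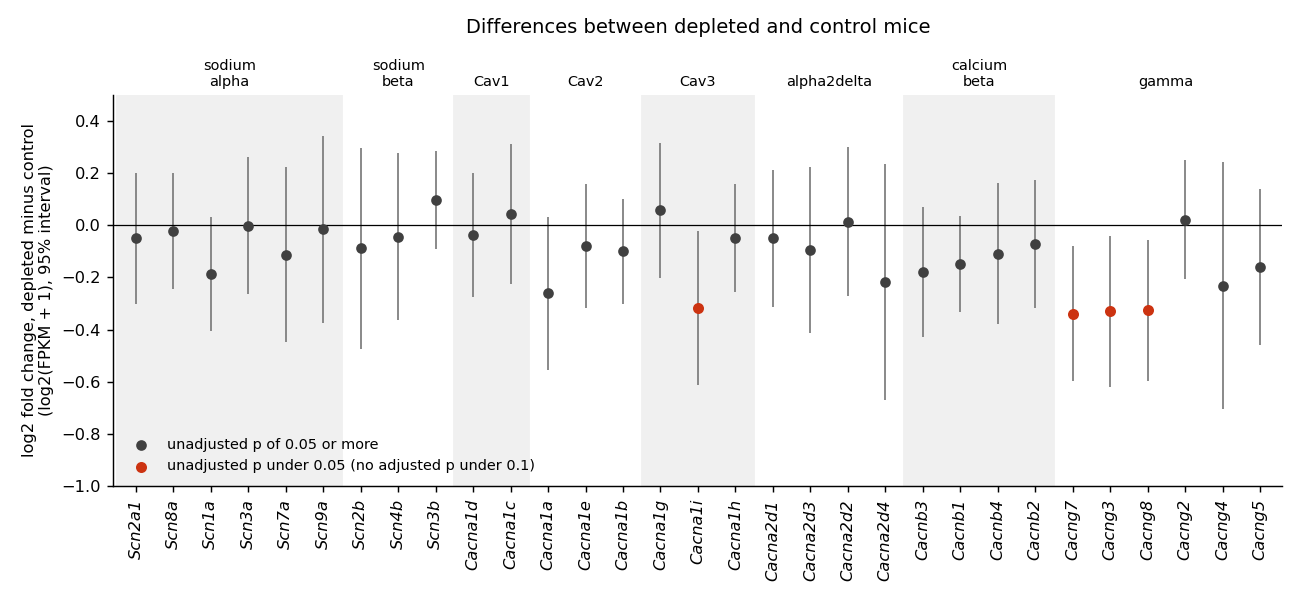
Log2 fold change (depleted minus control, on log2(FPKM + 1)) of 31 channel genes tested, ordered by subunit class and, within a class, by control level, with lines for limma's 95% intervals. The 4 genes with an unadjusted p under 0.05 (red), Cacna1i, Cacng7, Cacng3 and Cacng8, lie between -0.34 and -0.32, and the intervals of the other 27 genes shown include 0.

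The sodium channel alpha subunits of the cortex were dominated by 3 genes. Scn2a1, named Scn2a in current annotation and coding for Nav1.2 of excitatory axons, made up 38.7% ± 0.698 (SD, n = 3) of the summed alpha FPKM in control mice, Scn8a, coding for Nav1.6 of the axon initial segment and nodes, 32.0% ± 1.20 (SD, n = 3), and Scn1a, coding for Nav1.1, which is prominent in parvalbumin interneurons, 20.7% ± 1.27 (SD, n = 3). The summed alpha FPKM of control mice was 97.2 ± 7.06 (SD, n = 3) and that of depleted mice 93.5 ± 7.50 (SD, n = 3), with overlap. Scn2a1 measured 35.9, 41.6 and 35.4 FPKM in control and 31.5, 40.6 and 37.1 FPKM in depleted mice. The lowest value was that of A4 and the other depleted mice fell within the control range (log2 fold change -0.05, 95% interval -0.30 to 0.20, limma adjusted p = 0.896). Without A4, its log2 fold change was 0.05.

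Scn1a was the alpha gene with the largest difference, at 20.7, 21.6 and 18.1 FPKM in the control and 16.7, 18.8 and 17.1 FPKM in the depleted mice (log2 fold change -0.19, SE 0.10, limma adjusted p = 0.529). The groups overlapped in A3 and A5, and A4 was the lowest mouse, without which the log2 fold change was -0.15. As a share of the summed alpha FPKM, Scn1a was 22.0, 20.5 and 19.5% in control mice and 19.4, 18.6 and 18.3% in depleted mice. These shares did not overlap, but A3 and A4 lay close together. The sum includes genes under 0.5 FPKM, and in A4 Scn11a made up 2.18% of it, against 0.0325 to 0.076% in control mice. The separation of A3 and A4 rests on that value of Scn11a. Pvalb, a calcium buffer that marks the interneurons in which Nav1.1 is prominent, was 58.2 to 65.8 FPKM in control and 52.0 to 80.3 FPKM in depleted mice. Of the 7 interneuron markers read, 4 had a log2 fold change above 0 and 3 below 0, and Sst was lower in every depleted mouse. The part of interneurons in the Scn1a values was not tested. Scn8a differed by -0.02 (95% interval -0.24 to 0.20) and Scn3a, coding for the mainly embryonic Nav1.3, by 0.00 (-0.26 to 0.26) on the log2 scale. Without A4, the lowest mouse in Scn8a, that gene differed by 0.06.

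Scn7a and Scn9a were low. Scn7a, which codes for the sodium-sensing Nax, was 0.72 to 1.10 FPKM over the 6 mice, and Scn9a, coding for Nav1.7 of sensory neurons, 0.63 to 0.98. Both overlapped between the groups. The exons of Scn9a overlap those of the antisense gene Gm13629, which measured 2.07 to 2.75 FPKM, and no source used here says whether fragments were assigned by strand.

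The beta subunit genes were the most abundant class per length. Summed over the class, the FPKM was 400.1, 420.5 and 401.7 in control and 394.7, 408.0 and 407.1 in depleted mice, with overlap. Scn2b and Scn4b, whose proteins bind the alpha subunit through a disulfide bond, moved alike over the mice. Scn2b was 59.4, 62.9 and 63.6 FPKM in control mice and 42.4, 69.7 and 66.6 FPKM in depleted mice, and Scn4b was 53.1, 58.2 and 53.2 FPKM and 41.4, 60.8 and 59.5 FPKM. In both genes A4 was the lowest and A5 and A6 were the highest of the 6 mice. Their log2 fold changes were -0.09 and -0.04 with all mice and 0.14 and 0.13 without A4.

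Scn3b, a beta subunit that binds without a disulfide bond, had the highest log2 fold change of the 33 genes, at 0.10 (SE 0.08, limma adjusted p = 0.693). It measured 37.1, 39.4 and 36.6 FPKM in control and 38.9, 38.4 and 44.1 FPKM in depleted mice, and A2 lay above A4 and A5. Its share of the summed beta FPKM was 9.11 to 9.37% in control and 9.41 to 10.8% in depleted mice, without overlap. The largest value was that of A6, and the nearest mice of the 2 groups, A2 and A5, differed little.

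**Figure D2:**
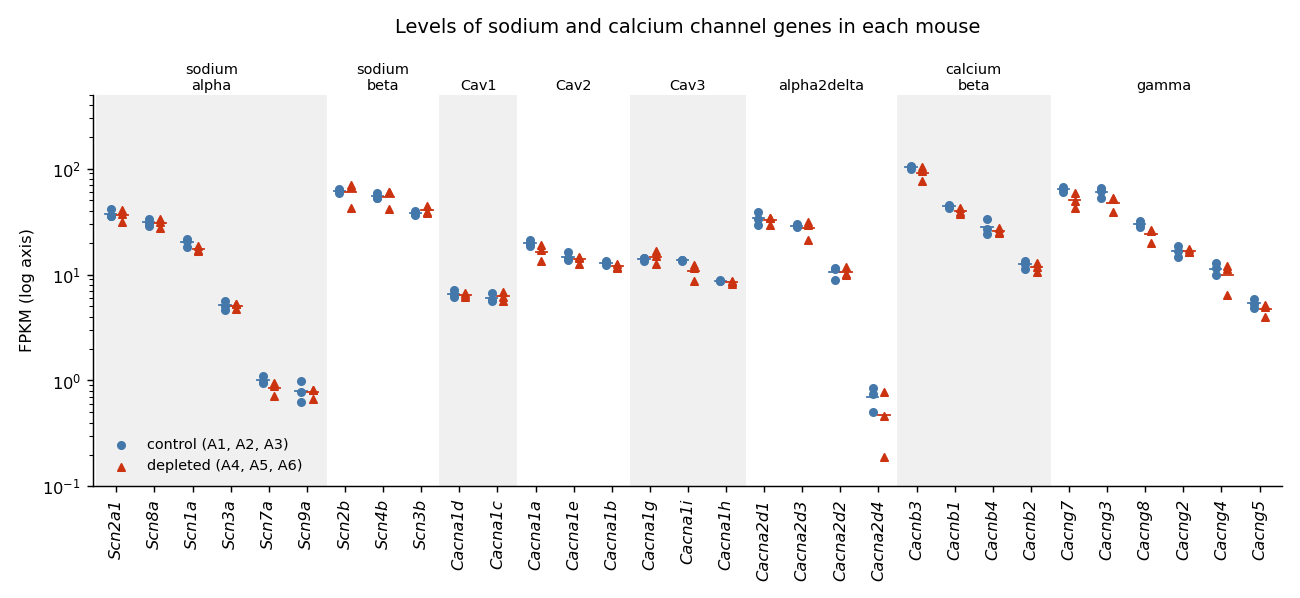
FPKM on a log axis of 31 channel genes tested in each control mouse (blue circles) and each depleted mouse (red triangles), with short lines at the group means, ordered by subunit class and control level. Of the genes shown, Cacnb3 is the highest, with a control mean of 103.1 FPKM, and Cacna2d4 is the lowest.

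The calcium channel alpha1 genes were spread more evenly. In control mice, Cacna1a, coding for the P/Q-type Cav2.1 of presynaptic terminals, made up 20.4% ± 0.626 (SD, n = 3) of the summed alpha1 FPKM. Cacna1e (R-type Cav2.3) contributed 15.2%, Cacna1g (T-type Cav3.1) 14.5%, Cacna1i (T-type Cav3.3) 14.1% and Cacna1b (N-type Cav2.2) 13.4%. The L-type genes Cacna1d (Cav1.3) and Cacna1c (Cav1.2), which couple activity to gene expression, contributed 6.83% and 6.23%. The summed alpha1 FPKM was 93.9, 102.0 and 94.3 in control and 85.6, 93.4 and 88.9 in depleted mice. The groups did not overlap, but A1 and A5 differed little (log2 ratio of the means -0.12). Without A4, the lowest mouse, the log2 ratio was -0.085.

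Among the Cav2 genes, Cacna1a had the largest difference, at 18.5, 21.4 and 19.3 FPKM in control and 13.4, 19.0 and 16.9 FPKM in depleted mice (log2 fold change -0.26, SE 0.13, limma adjusted p = 0.515). A4 was the lowest and A5 lay within the control range. Without A4 the log2 fold change was -0.13. Cacna1b and Cacna1e differed by -0.10 (95% interval -0.30 to 0.10) and -0.08 (-0.32 to 0.16), and A4 was the lowest of the 6 mice in all 3 Cav2 genes. Without A4 the values were -0.07 for Cacna1b and -0.02 for Cacna1e.

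The T-type genes, whose low-threshold channels support burst firing, differed among themselves. Cacna1i measured 13.3, 13.8 and 13.8 FPKM in control and 8.69, 11.5 and 12.4 FPKM in depleted mice, so that all depleted mice were lower and A4 was lowest (log2 fold change -0.32, SE 0.13, limma adjusted p = 0.451). The difference in mean FPKM was -2.77 (p = 0.1 by exact permutation, two-sided, the smallest that 3 mice against 3 allow). Without A4 the log2 fold change was -0.18 (limma adjusted p = 0.415). Cacna1h (Cav3.2) was 8.74, 8.76 and 8.79 FPKM in control mice and 8.67, 8.55 and 8.12 FPKM in depleted mice. The groups did not overlap in Cacna1h, since the control mice lay very close together, yet the difference was small (log2 fold change -0.05, 95% interval -0.25 to 0.16, limma adjusted p = 0.877).

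Cacna1g had the second highest log2 fold change of the channel genes, at 14.3, 14.4 and 13.4 FPKM in control and 16.7, 14.9 and 12.5 FPKM in depleted mice (0.06, 95% interval -0.20 to 0.32). The depleted mice lay on both sides of the control mice, and without A4 the value was -0.03. Within a library, the ratio of Cacna1i to Cacna1g was 0.931, 0.958 and 1.03 in control and 0.520, 0.772 and 0.993 in depleted mice, which overlapped (exact two-sided permutation test, p = 0.3). Cacna1g is strongly expressed in thalamic relay cells. The 6 thalamic markers summed to 88.5 to 116.5 FPKM in control and 83.8 to 101.5 FPKM in depleted mice. Of these markers Calb2, which gave much of the sum, had a log2 fold change above 0 and the other 5 had one below 0, and Prkcd was lower in every depleted mouse (-0.32).

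The L-type genes did not separate the groups. Cacna1c was 5.72, 6.73 and 5.67 FPKM in control and 6.89, 6.19 and 5.68 FPKM in depleted mice (log2 fold change 0.04, 95% interval -0.23 to 0.31). Cacna1d was 6.52, 7.11 and 6.19 FPKM in control and 6.42, 6.08 and 6.71 FPKM in depleted mice (log2 fold change -0.04, 95% interval -0.28 to 0.20). Depleted and control mice were intermixed in both genes. The exons of Cacna1d overlap those of Chdh on the opposite strand, which was at 0.47 to 1.33 FPKM.

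Of the alpha2delta genes, whose proteins raise channel density at the membrane and in the case of Cacna2d1 and Cacna2d2 bind gabapentin, Cacna2d1 was the highest. It measured 33.7, 38.7 and 29.3 FPKM in control and 29.3, 34.1 and 34.2 FPKM in depleted mice, with the depleted mice inside the control range (log2 fold change -0.05, 95% interval -0.31 to 0.21). Cacna2d3 was 28.0 to 29.8 FPKM in control mice, 21.0 FPKM in A4 and 29.2 and 31.6 FPKM in A6 and A5, so that A4 alone was low, and its log2 fold change was -0.10 with all mice and 0.08 without A4. Cacna2d2 differed by 0.01 (95% interval -0.27 to 0.30) on the log2 scale. Cacna2d4 was near the level below which genes were not tested, at 0.50 to 0.85 FPKM in control and 0.19 to 0.77 FPKM in depleted mice.

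All 4 beta subunit genes of the calcium channel, whose proteins bind the alpha1 subunit inside the cell, had log2 fold changes below 0, from -0.18 to -0.07, and all 4 overlapped between the groups. Single mice weighed on these values, as Cacnb4 had 0.012 without A2 and Cacnb2 had -0.005 without A4. Cacnb3, the highest, was 99.7, 105.3 and 104.3 FPKM in control and 76.5, 104.1 and 94.3 FPKM in depleted mice (log2 fold change -0.18, SE 0.11, limma adjusted p = 0.590). A4 was far below the others and A5 was level with the control mice, and without A4 the log2 fold change was -0.06. Cacnb1 was 42.2 to 45.6 FPKM in control and 37.1 to 42.9 FPKM in depleted mice, with only A5 inside the control range (log2 fold change -0.15, SE 0.08, limma adjusted p = 0.546).

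**Figure D3:**
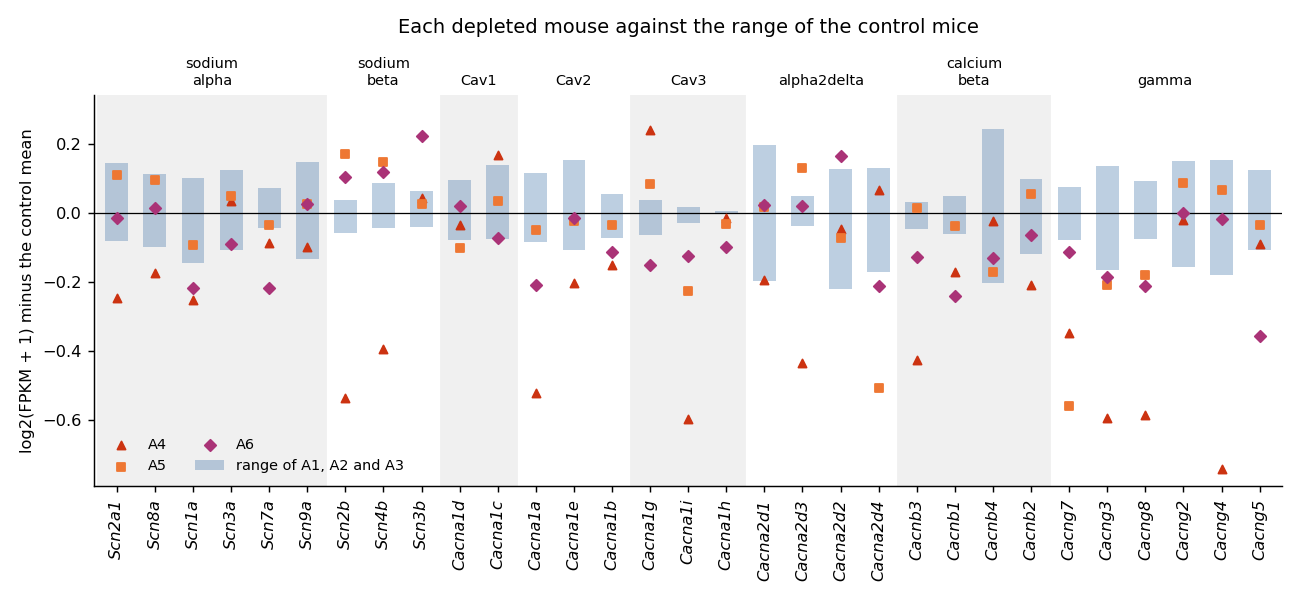
Deviation of each depleted mouse from the control mean on the log2(FPKM + 1) scale for 31 channel genes tested (A4 triangles, A5 squares, A6 diamonds), with bars for the range of the 3 control mice. A4 is the lowest of the 3 depleted mice in 18 genes, and all 3 depleted mice lie below the bar in Cacna1h, Cacna1i, Cacng3, Cacng7 and Cacng8.

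The gamma subunits carried the largest differences of any class. Cacng2 (stargazin), Cacng3, Cacng4 and Cacng8 code for type I TARPs, and Cacng5 and Cacng7 for type II TARPs. Cacng7 and Cacng8 are neighbours on chromosome 7, and Cacng3 lies farther along the same chromosome. The annotated promoter of Cacng2, whose groups overlapped, is given here as an example of the start region of a TARP gene. It runs 5′ to 3′ along the gene and comes from RefSeq on GRCm38.p6, whereas the table was made on mm9, and capitals mark the 50 bases from the annotated start onwards.
Cacng2: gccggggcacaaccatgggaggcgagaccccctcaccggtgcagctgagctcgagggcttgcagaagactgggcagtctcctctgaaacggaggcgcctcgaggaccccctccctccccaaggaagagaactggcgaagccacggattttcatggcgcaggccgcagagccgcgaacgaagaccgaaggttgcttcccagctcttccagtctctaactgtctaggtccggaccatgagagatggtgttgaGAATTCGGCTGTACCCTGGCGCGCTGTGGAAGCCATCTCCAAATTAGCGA

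The window was chr15:78119231-78119530 (minus strand). Its GC content was 61.0%, and it held 20 CG dinucleotides. A GC box (GGGCGG on either strand) was not found in it, where 35.7% of all 32851 RefSeq promoter windows of this length hold one. Promoter windows were found for 30 of the 40 channel genes, 41 windows in all. Of these 41 windows, 39.0% held a GC box, 4.88% held TATAAA (13.6% of all windows) and none held the cAMP response element TGACGTCA (1.79% of all windows) or the E box CACGTG (7.15% of all windows).

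Cacng7 was 60.1, 66.9 and 63.7 FPKM in control and 49.7, 42.8 and 58.7 FPKM in depleted mice. All depleted mice were lower, A5 most and A6 least (log2 fold change -0.34, SE 0.11, 95% interval -0.60 to -0.08, limma adjusted p = 0.396). The log2 fold change was also -0.34 without A4, with an unadjusted p still under 0.05, and it was -0.23 without A5, no longer under 0.05.

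Cacng3 was 53.2, 61.0 and 65.7 FPKM in control and 39.3, 51.6 and 52.4 FPKM in depleted mice. A4 was lowest, while A5 and A6 lay just below the lowest control mouse (log2 fold change -0.33, SE 0.13, 95% interval -0.62 to -0.04, limma adjusted p = 0.438). Without A4 it was -0.20, with an unadjusted p no longer under 0.05. Cacng8 was 28.4, 29.6 and 32.0 FPKM in control and 19.6, 26.3 and 25.7 FPKM in depleted mice, with A4 again lowest (log2 fold change -0.33, SE 0.12, 95% interval -0.60 to -0.06, limma adjusted p = 0.415). Without A4 it was -0.20, with an unadjusted p still under 0.05. For each of these 3 genes the exact two-sided permutation test of the FPKM values gave p = 0.1, the smallest possible.

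The other TARP genes did not separate the groups. Cacng2 was 14.7, 18.4 and 16.6 FPKM in control and 16.2, 17.6 and 16.5 FPKM in depleted mice, and all depleted mice were inside the control range (log2 fold change 0.02, 95% interval -0.21 to 0.25). Cacng4 was 9.89 to 12.7 FPKM in control mice, 11.9 and 11.2 FPKM in A5 and A6 and 6.37 FPKM in A4, and its log2 fold change was -0.23 with all mice and 0.02 without A4. Cacng5 was 4.87 to 5.90 FPKM in control and 3.95 to 5.18 FPKM in depleted mice (log2 fold change -0.16, 95% interval -0.46 to 0.14). Summed over the gamma genes, the FPKM was 174.2, 191.1 and 196.8 in control and 136.6, 155.4 and 169.9 in depleted mice, without overlap, and the log2 ratio of the means was -0.28, or -0.20 without A4.

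Ratios within a library do not depend on how libraries were scaled. They can still depend on base composition, since GC content differed between the genes, at 65.1% for Cacng8 and 51.2% for Cacng2. The ratios were not corrected for it. The ratio of Cacng7 to Cacng2 was 4.09, 3.64 and 3.83 in control and 3.06, 2.43 and 3.56 in depleted mice. That of Cacng3 to Cacng2 was 3.63, 3.32 and 3.96 in control and 2.42, 2.93 and 3.18 in depleted mice, and that of Cacng8 to Cacng2 was 1.93, 1.61 and 1.92 and 1.21, 1.5 and 1.56. All 3 ratios were lower in every depleted mouse than in every control mouse. By exact permutation, two-sided, each had p = 0.1, or 0.433 adjusted over the 13 ratios computed, and they share the Cacng2 values of the same libraries and were chosen after those values were seen. Cacng2 made up 8.43 to 9.63% of the summed gamma FPKM in control and 9.70 to 11.9% in depleted mice. The ratios of Cacng4 and Cacng5 to Cacng2 overlapped between the groups (p = 0.5 and p = 0.4 by exact permutation).

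**Figure D4:**
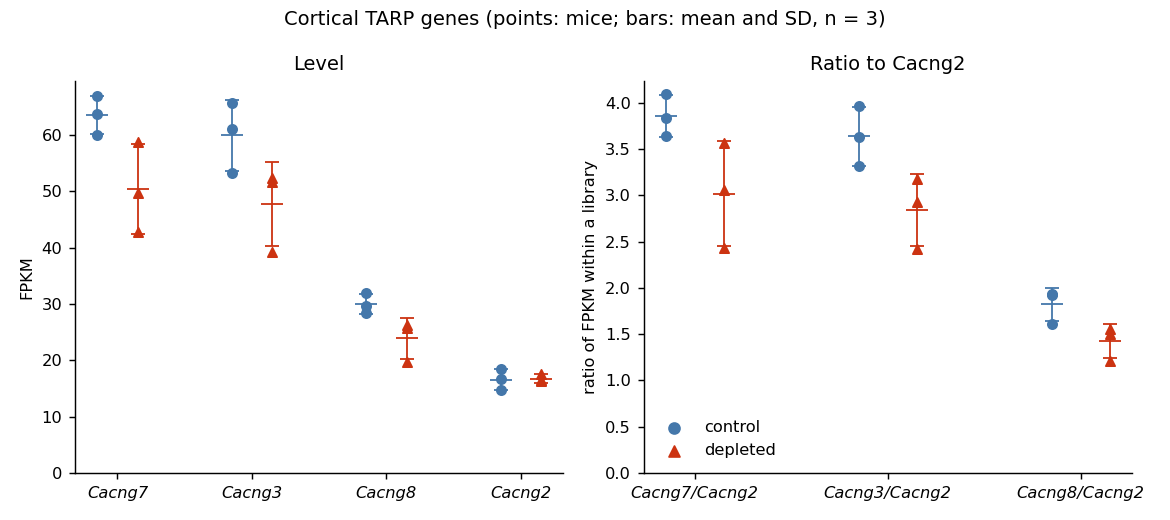
Left, FPKM of Cacng7, Cacng3, Cacng8 and Cacng2 in each mouse. Right, the ratio of the first 3 genes to Cacng2 within each library, with points for mice (control blue circles, depleted red triangles) and lines for the mean and SD of 3 mice. The control points lie above the depleted points everywhere except for Cacng2 itself, whose depleted values of 16.2 to 17.6 FPKM lie within the control range.

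Fold changes moved with base composition across the whole table. Over all genes tested, split into 10 classes of equal size by the GC content of the longest transcript, the median log2 fold change was highest in the third class at 0.04 and lowest in the class richest in GC at -0.135, and 6 channel genes fell into the latter. Cacng8 had a GC content of 65.1%, Cacna1i of 59.3%, Cacng7 of 58.1%, Cacng3 of 54.6% and Cacng2 of 51.2%. Over the 33 channel genes, whose transcripts share the same 6 libraries, GC content and log2 fold change had a Pearson's r of -0.35 and a Spearman's rho of -0.28, and transcript length and log2 fold change had 0.37 and 0.41. After each library's dependence on GC content was removed by loess, an alternative chosen after seeing the data, the log2 fold change was -0.30 for Cacng3, -0.25 for Cacng7, -0.21 for Cacna1i and -0.14 for Cacng8, with limma adjusted p-values from 0.549 to 0.728. Cacng8 moved most under the correction. Of the calcium channel beta genes, Cacnb3 and Cacnb1 then had -0.040 and -0.035, and Cacnb2 and Cacnb4 had -0.106 and -0.122. Scn1a then had -0.22, and 2 channel genes in all, Cacng3 and Scn1a, had an unadjusted p under 0.05.

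**Figure D5:**
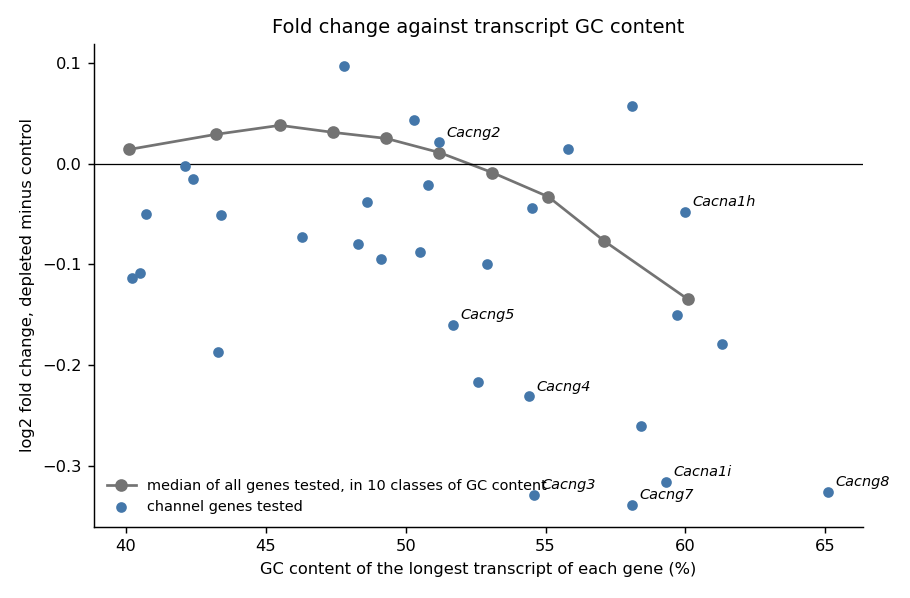
Log2 fold change (depleted minus control) of 31 channel genes tested (blue points) against the GC content of their longest transcript, with the medians of all genes tested in 10 classes of GC content (gray line). The gray line goes down to -0.135 in the class richest in GC, Cacng3, Cacng7 and Cacna1i lie well below it, and Cacng8 lies beyond its last point.

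The 7 genes under 0.5 FPKM were Scn4a, Cacna1s and Cacng1, known from skeletal muscle, Scn10a and Scn11a, known from sensory neurons, Cacna1f, known from the retina, and Cacng6, and none was listed at 0 in every mouse. Their means over the 6 mice ran from 0.065 FPKM in Scn10a to 0.378 FPKM in Scn11a. Scn11a was 0.03 to 0.08 FPKM in control mice, 1.88 FPKM in A4 and 0.19 and 0.03 FPKM in A5 and A6, and Scn4a (0.43 FPKM) and Cacna1f (0.32 FPKM) were also highest in A4. Cacng6 was highest in A6, at 1.13 FPKM. The muscle markers Ckm, Myh4 and Tnnt3 were at most 0.36 FPKM in any mouse, next to Acta1 at 4.06 to 8.67 FPKM and Mylpf at 0.18 to 1.29 FPKM, which was highest in A3 and A4. No difference in these 7 genes was detectable at this depth.

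In 5 lists of genes that work with the channels, no member passed the adjusted test. Among 18 sodium channel partners, such as ankyrins, spectrins and fibroblast growth factor homologous factors, 2 (11.1%) had an unadjusted p under 0.05, near the 10.5% of all genes tested, and both were lower (median log2 fold change -0.09). The groups did not overlap in 4 of them (22.2%), all lower, against 9.38% of all genes tested that were lower without overlap. Fgf13, which codes for a factor that binds the tail of the sodium channel, was 56.4, 59.3 and 51.3 FPKM in control and 41.9, 49.9 and 43.2 FPKM in depleted mice (log2 fold change -0.30, SE 0.09, limma adjusted p = 0.378). Its homologue Fgf11 had -0.51 (limma adjusted p = 0.438), with A5 inside the control range. The highest value of the list, 0.11, was that of Nedd4l, a ubiquitin ligase of channels (adjusted p = 0.660).

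Of 29 calcium channel partners tested, among them active zone proteins and small G proteins, 3 (10.3%) had an unadjusted p under 0.05, again near the 10.5% of all genes tested, and all were lower (median log2 fold change -0.08). They were Rims4, a short RIM protein of the active zone, at 16.3, 20.1 and 16.9 FPKM in control and 10.9, 14.1 and 14.4 FPKM in depleted mice (log2 fold change -0.41, limma adjusted p = 0.379), Stac2, an adaptor of L-type channels (-0.32, adjusted p = 0.378), and the release protein Stx1a (-0.31, adjusted p = 0.409). All 3 were lower in every depleted mouse, and A4 was the lowest mouse in each. Without A4 their log2 fold changes were -0.29, -0.23 and -0.18. In the list, 6 genes (20.7%) did not overlap, 4 of them lower, against 17.6% of all genes tested. Rrad, a G protein that inhibits calcium channels, had the highest value, 0.37 (adjusted p = 0.598).

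The AMPA receptor list, which holds the receptors that TARPs accompany, was lower in sum. Its 15 tested genes summed to 879.4 to 951.5 FPKM in control and 750.5 to 865.2 FPKM in depleted mice, without overlap, and the median log2 fold change was -0.12. The log2 ratio of the summed means was -0.16 with all mice and -0.10 without A4. An unadjusted p under 0.05 was found in 3 of the 15 genes, against 10.5% of all genes tested, and all 3 were lower, against 5.74% of all genes tested in that direction. The largest difference of the 5 partner lists was in Prrt1 (SynDIG4), an AMPA receptor partner, at 26.3, 29.2 and 33.5 FPKM in control and 14.8, 16.7 and 20.1 FPKM in depleted mice (log2 fold change -0.76, SE 0.13, limma adjusted p = 0.270). Every depleted mouse was well below every control mouse in this gene. Cnih2, an auxiliary subunit, had -0.26 (adjusted p = 0.396) and the scaffold gene Dlg4 (PSD-95) -0.26 (adjusted p = 0.464). Both were lowest in A4, and without that mouse Cnih2 had -0.17 and Dlg4 -0.13. The receptor subunit genes Gria1, Gria2, Gria3 and Gria4 had -0.04, -0.14, -0.09 and -0.17, with overlap in each, and the highest value was that of Shisa6, 0.09 (adjusted p = 0.860).

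The 21 other cation channels included HCN, TRPC, ryanodine and IP3 receptor genes (median log2 fold change -0.02). Of these, 0 had an unadjusted p under 0.05 in limma, against 10.5% of all genes tested. Hcn2, Tpcn1 and Ryr1, 3 genes (14.3%), were lower without overlap, against 9.38% of all genes tested. Hcn2, which codes for a pacemaker channel, was lowest at -0.35 (adjusted p = 0.492), or -0.14 without A4, and Stim2, which codes for a calcium sensor of the endoplasmic reticulum, highest at 0.23 (adjusted p = 0.529). Of 19 genes of calcium-dependent expression and calcium handling, 1 (5.26%) had an unadjusted p under 0.05, against 10.5% of all genes tested. It was the CREB coactivator gene Crtc1 (-0.23, limma adjusted p = 0.418), and the median of the 19 genes was -0.06. The lowest was Camkk2 (-0.36, adjusted p = 0.592), which was 31.1 FPKM in A4 and had -0.06 without that mouse, and the highest Nfatc3 (0.15, adjusted p = 0.773).

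Marker genes of the cell types that a cortical sample can hold were read beside these values, and none was at 0 in every mouse. The 6 markers of cortical excitatory neurons summed to 959.6 to 1115 FPKM in control and 980.3 to 1007 FPKM in depleted mice, and the 7 interneuron markers to 540.3 to 572.7 and 451.4 to 546.1 FPKM, where Sst, which gave much of the sum, was lower in every depleted mouse and 4 of the 7 markers had a log2 fold change above 0. The 5 layer IV markers summed to 28.9 to 30.4 and 22.7 to 29.0 FPKM, with Rspo1 (log2 fold change -0.59) and Scnn1a (-0.51) lower in every depleted mouse. The layer IV markers Rorb (-0.12), Kcnh5 (-0.06) and Cux2 (-0.04) overlapped between the groups. Oligodendrocyte markers (2723 to 2966 against 2391 to 2459 FPKM), oligodendrocyte precursor markers (22.0 to 24.3 against 19.4 to 21.4 FPKM) and choroid plexus markers (165.4 to 321.3 against 44.2 to 68.5 FPKM) were lower in sum without overlap, while endothelial and mural markers were higher in sum (16.1 to 16.9 against 17.8 to 20.9 FPKM). Lower without overlap were 3 of the 5 oligodendrocyte markers, 2 of the 4 precursor markers and 1 of the 4 choroid plexus markers, Ttr. Over all genes tested 9.38% were lower without overlap, and 17.6% did not overlap in either direction. Ttr gave nearly all of the choroid plexus sum. Of the 5 endothelial and mural markers, Cldn5 alone was higher without overlap. Astrocyte markers summed to 311.6 to 376.2 FPKM in control and 362.2 to 542.0 FPKM in depleted mice, the highest being A4, where Gfap alone was 300.3 FPKM. The other 4 astrocyte markers had log2 fold changes below 0, from -0.21 to -0.04. Microglial markers summed to 80.0 to 96.5 and 81.5 to 127.8 FPKM, where C1qa (log2 fold change 0.69) was higher and Fcrls (-0.90) and P2ry12 (-0.35) were lower in every depleted mouse. Further sums were for striatal markers 225.8 to 264.2 and 228.7 to 271.1 FPKM, and for meningeal markers 24.1 to 28.2 and 21.5 to 27.2 FPKM. The markers of skeletal muscle summed to 5.51 to 8.02 and 4.75 to 9.85 FPKM. The part of these cell types in the channel values was not tested.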

How the data were processed

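Cortical poly(A) RNA of 3 control and 3 depleted mice was measured. The authors sequenced 75 bp read pairs, aligned them with TopHat, quantified known transcripts with RSEM and deposited TMM-scaled FPKM values, to which all 6 columns belong. The submitters' processing notes name mm9, TopHat, RSEM and DESeq, and the versions are not given in the sources used here. The authors' DESeq test on counts was not repeated, since the table holds FPKM. FPKM corrects for length and library size but not for base composition. The authors' methods name 1 read coverage for all samples, and depth per library was estimated here from low values.

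Genes whose mean reached 0.5 FPKM were compared on log2(FPKM + 1) with limma 3.58.1 in R 4.3.3 (lmFit, eBayes with trend), and called at a Benjamini-Hochberg adjusted p under 0.1. This scale understates the fold changes of low genes. Single values were compared by the exact two-sided permutation test. Transcripts of GENCODE M21 (GRCm38) gave the GC content of 99.1% of the genes tested, by symbol. Other steps used scipy 1.17.1 and pandas 2.3.3 under Python 3.11.15, and matplotlib 3.10.9.

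The members, the lists of partners and the markers were chosen with earlier results of these data known. Genes were named by a rule: non-overlapping groups, an unadjusted p under 0.05, the highest control level of a class, the 3 largest changes in each direction, and the extremes of each partner list. Others of the 40 were named to account for the members, and Pvalb, the single markers, Tpcn1, Ryr1 and the receptor subunit genes with values known. Values of 2 channel genes and 2 promoters are not reported here. Alternatives covered no filter, a minimum of 1 FPKM, a pseudocount of 0.1, median-of-ratios scaling, quantile normalization, array weights, leaving out each mouse, and loess corrections for GC content and length.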

Additional observations from a re-analysis of the deposited data

How the results depend on the processing

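No channel gene passed an adjusted p of 0.1 with limma under any of the 14 alternatives. The number of channel genes with an unadjusted p under 0.05 in limma was 4, beside 1515 of all 14385 genes tested. It fell to 2 with the GC correction, beside 1267 of 14251 genes. With single mice left out it ran from 0 without A2 (951 of all genes) to 6 without A5 (2056). It was 2 without A3 (885 of all genes) and 2 without A4 (1895). Some log2 fold changes near 0 changed sign: Cacna1h was 0.07 with the GC correction, and Scn2a1 0.021 with array weights. With single mice left out, the log2 fold change ran from -0.019 to 0.112 for Cacna1c, from -0.078 to 0.009 for Cacna1d, from -0.034 to 0.161 for Cacna1g, from -0.148 to 0.047 for Cacna2d1 and from -0.131 to 0.047 for Scn2a1. The cause of these changes was not tested. Those of Cacna1i, Cacng3, Cacng7 and Cacng8 were below 0 under all 14 alternatives, with adjusted p from 0.249 to 0.892. The correction for GC content and the one for length were chosen after seeing the data. No paired analysis was made, since the sample labels give no litter or pairing of the mice. With 3 mice a group and unsettled depths, small differences of low genes were not detectable.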
